A study of Homo sapiens with 24 samples.

Results

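ID1, ID2, ID3 and ID4 encode the inhibitor of DNA binding (ID) proteins, and their mRNA levels were followed in Huh7 cells, a human hepatoma line, exposed to palmitic acid. All 4 genes were found by symbol among the 57979 gene rows used, and all 4 passed the floor for testing, set at 0.5 FPKM averaged across all 24 libraries. FPKM divides the fragments of a gene by its transcript length and by the library's mapped fragments, so levels can be set side by side between genes. The family was chosen by the level of ID2, which was listed at 0 in every knockout library at 48 h, and ID2 values that involve that group are given as a description with no test. ID1, ID3 and ID4 were taken as its paralogues.

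The groups were ABHD6 knockout (KO) and wild-type (WT) cells, each harvested at 0 h in basal medium, at 24 h or at 48 h. The later groups had received 800 µM of palmitic acid, which is a saturated fatty acid. ABHD6 encodes a serine hydrolase that cleaves monoacylglycerols. Each of the 6 groups had 4 libraries, 24 in all, with replicates numbered 0 to 3 by the labels. The protocol text gives a harvest on day 1 only, and the times come from the titles and the design text. No group spent 24 h or 48 h without the acid, and its effect cannot be told apart from that of time in culture. Whether the libraries within a group are separate cultures, and whether the KO is 1 clone or several, is not in the labels. The p-values therefore measure only the spread between these libraries, which may be technical.

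ID proteins have a helix-loop-helix domain but lack the basic stretch that contacts DNA. They bind E proteins such as TCF3 (E2A), TCF4 and TCF12 and keep them from pairing with tissue-specific bHLH factors and binding E-boxes. ID1, ID2 and ID3 are classical targets of bone morphogenetic protein (BMP) signalling through SMAD1, SMAD5 and SMAD9, which in liver also drives HAMP, the hepcidin gene. ID2 is also known for binding the retinoblastoma protein.

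The gene positions are from GENCODE release 29 on GRCh38. ID1 (ENSG00000125968.8) is a protein-coding gene on the plus strand at chr20:31605283-31606515. ID2 (ENSG00000115738.9) is on the plus strand at chr2:8678845-8684453, and its exons overlap those of ID2-AS1 on the other strand. ID3 (ENSG00000117318.8) is on the minus strand at chr1:23557918-23559794. ID4 (ENSG00000172201.11) is on the plus strand at chr6:19837386-19840684, and the antisense gene AL022068.1 overlaps it without sharing exon bases.

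The promoters of ID1 and ID2 are shown because the results turn on these genes. Each is the 250 bases before the RefSeq start on GRCh38.p14, at chr20:31605039-31605288 for ID1 and chr2:8681806-8682055 for ID2, both on the plus strand. The RefSeq start of ID2 lies inside the longer GENCODE gene. Capitals mark TATAA and CCAAT on either strand, where a CCAAT of the minus strand reads ATTGG.
ID1: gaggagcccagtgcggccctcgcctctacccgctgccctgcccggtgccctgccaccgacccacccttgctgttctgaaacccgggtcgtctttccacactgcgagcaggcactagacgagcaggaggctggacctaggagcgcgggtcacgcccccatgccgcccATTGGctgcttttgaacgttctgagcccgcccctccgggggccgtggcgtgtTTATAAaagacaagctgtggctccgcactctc
ID2: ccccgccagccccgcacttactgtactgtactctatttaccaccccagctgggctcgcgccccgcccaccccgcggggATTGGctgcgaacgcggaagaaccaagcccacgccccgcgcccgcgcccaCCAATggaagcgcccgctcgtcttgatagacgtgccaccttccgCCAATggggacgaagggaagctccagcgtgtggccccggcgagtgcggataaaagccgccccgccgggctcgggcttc
ID1 had TATAA on both strands, 2 overlapping matches between bases 32 and 27 before the start, and a single CCAAT on the minus strand at bases 84 to 80. ID2 had no TATAA and 3 copies of CCAAT, whose last bases lay 168, 118 and 74 bases before the start. ID3 had TATAA at bases 29 to 25 and no CCAAT, and ID4 had TATAA at the same place and 1 CCAAT. The E-box pattern CANNTG occurred once in ID2, once in ID4 and not in ID1 or ID3. GGCGCC, a core bound by BMP SMADs, occurred in none of the 4. Over 35116 RefSeq promoters of the same length, 18.9% held TATAA, 32.01% CCAAT, 61.8% CANNTG and 16.4% GGCGCC on either strand. These matches describe the letters in the windows and no more.

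The libraries were shallow, with 12894 to 15334 genes above 0. Taking the commonest product of FPKM and exon length as 1 fragment placed 396278 to 714496 fragments behind each. Depth moved with time: at 0 h there were 409261 to 501187 fragments in KO and 396278 to 465586 in WT, at 24 h 562341 to 616595 in KO and 578096 to 645654 in WT, and at 48 h 633870 to 707946 in KO and 567545 to 714496 in WT. Every library at 0 h was thus shallower than every later one, and the part of depth in the comparisons with 0 h was not tested. A single fragment over the exon length was worth 1.14 to 2.05 FPKM for ID1, 0.635 to 1.14 FPKM for ID2, 0.779 to 1.40 FPKM for ID3 and 0.597 to 1.08 FPKM for ID4. Values above 0 rested on a median of 12.04 estimated fragments for ID1, 7.83 for ID2, 5.195 for ID3 and 2.61 for ID4. An exact 0 can also be a failed estimate. MT-CO1, a mitochondrial gene that every cell uses, was at 273 to 494 FPKM in KO and 348 to 464 FPKM in WT at 0 h and was listed at 0 in all later libraries. Genes annotated as antisense held 44.0% to 58.1% of summed FPKM. How strand was handled in the counting is not stated by the labels, and with the opposite setting the values of the ID genes would hold only stray reads. ABHD6 was above 0 in 4 of 12 KO and 3 of 12 WT libraries, at most at 1.16 FPKM, too low to check the genotype labels. All 10 hepatocyte markers were above 0 in all 24 libraries. The endothelial markers VWF, CDH5, KDR and TEK were at 0 throughout, and PECAM1 was at 0.462 to 18.04 FPKM. The stellate markers summed to 0 to 10.1 FPKM per library, the biliary ones to 12.2 to 52.6 FPKM with KRT7 at 0, and the immune ones to 83.7 to 338 FPKM, mostly LYZ. In such bulk samples, fewer cells with an mRNA and less of it per cell cannot be told apart.

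ID1 was the most abundant member per length, at a mean of 19.7 FPKM, against 6.54 FPKM for ID2, 4.62 FPKM for ID3 and 2.46 FPKM for ID4. It was the highest of the 4 in 19 of 24 libraries, while ID2 led in 4 and ID3 in 1. ID1 was above 0 in 23 libraries, ID2 in 20, ID3 in 18 and ID4 in 22.

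**Figure D1:**
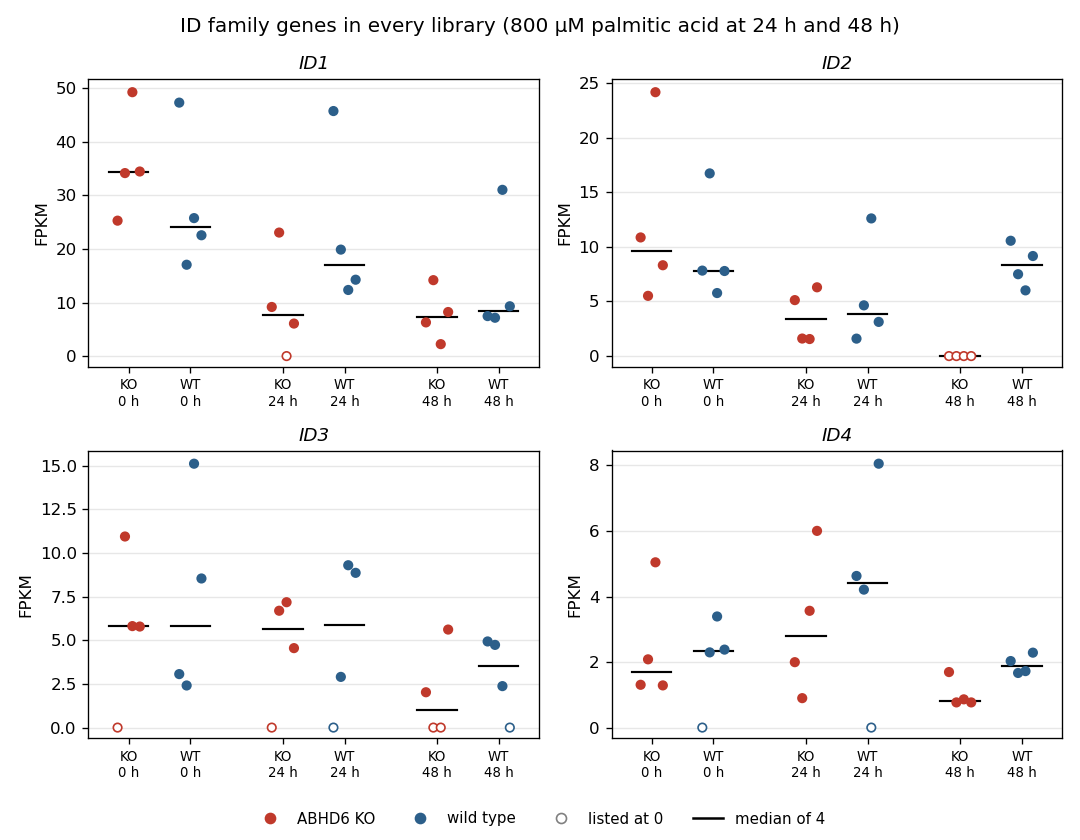
FPKM of ID1, ID2, ID3 and ID4 in every library (1 point each, open where listed at 0), by genotype and hours with palmitic acid; the bar is the median of 4. ID2 lies at 0 in all 4 KO libraries at 48 h and between 6.02 and 10.6 FPKM in WT at 48 h, while ID1, ID3 and ID4 overlap between KO and WT at each time.

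ID1, a direct BMP target that restrains differentiation, fell in KO cells after 24 h with palmitic acid. It had 9.17, 23.1, 0 and 6.08 FPKM in KO cells at 24 h, against 25.3, 34.2, 49.3 and 34.5 FPKM in KO cells at 0 h. Every KO library at 24 h was below every KO library at 0 h. How many of all genes separate in this way was not counted, here or for the genes below. The log2 fold change of FPKM + 0.5 was -2.76 ± 0.79 (SE; 95% interval -4.39 to -1.12) with an adjusted p of 0.0404 in limma, 4 libraries a group. ID1 was the 1 member of 4 called in that comparison (adjusted p under 0.05), where 5.64% of the 17252 genes tested were called and 3.51% were called lower. Without adjustment limma put 3075 genes (17.8%) under 0.05 there, ID1 and ID2 among them. The call of ID1 was lost under 6 of 10 other settings and when any of 6 of the 8 libraries was left out. Without KO replicate 2 at 24 h, the library at 0, the fold change was -1.63 and the adjusted p 0.136. It was also lost without KO replicate 3 at 24 h (adjusted p = 0.0696) and without any 1 of the KO libraries at 0 h, where the adjusted p was 0.0606 without replicate 0, 0.0723 without replicate 1, 0.104 without replicate 2 and 0.0773 without replicate 3. Other measures moved between the same libraries. Mitochondrially encoded genes held 10.4% to 12.6% of summed FPKM in KO at 24 h and 3.20% to 4.43% in KO at 0 h, and antisense genes held 46.1% to 47.5% in KO at 24 h and 56.6% to 57.9% in KO at 0 h. Their part in the result was not tested.

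At 48 h ID1 had 6.29, 14.2, 2.23 and 8.23 FPKM in KO cells, again with every library below those of KO at 0 h. Its log2 fold change against 0 h was -2.34 ± 0.79, with an adjusted p of 0.0643 in limma, and did not pass. It passed with a pseudocount of 1 (adjusted p = 0.0395), with a floor of 2 FPKM (0.0499) and with only the groups compared in the fit (0.0141). None of the 3 members tested passed there, against 9.82% of all genes tested. Without adjustment limma put 3748 genes, ID1 among them, under 0.05 in that comparison.

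In WT cells ID1 had 45.8, 19.9, 12.4 and 14.3 FPKM at 24 h, against 47.4, 17.1, 25.8 and 22.6 FPKM at 0 h. At 48 h the WT cells had 7.47, 7.16, 31.1 and 9.31 FPKM. The WT ranges overlapped at all 3 times, and each WT group held 1 library well above its other 3. The log2 fold changes in WT were -0.38 ± 0.79 at 24 h (adjusted p = 0.892) and -1.19 ± 0.79 at 48 h (adjusted p = 0.456). None of the 4 members passed in either WT comparison in limma, and 0 had an unadjusted p under 0.05. Over all genes 4.06% were called at 24 h (2733 under an unadjusted p of 0.05) and 6.79% at 48 h (3239).

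The KO and WT responses of ID1 were not shown to differ. On the log2 scale, the KO response minus the WT response was -2.38 ± 1.12 at 24 h (95% interval -4.69 to -0.06, adjusted p = 0.901) and -1.15 ± 1.12 at 48 h (adjusted p = 0.885). No member tested, which leaves out ID2 at 48 h, passed the test of this difference at either time. Over all genes 0% (0 genes, with 950 under an unadjusted p of 0.05) were called at 24 h and 0.0522% at 48 h. Without adjustment, ID1 at 24 h was the 1 member under 0.05.

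Set against WT at the same time, ID1 in KO differed by 0.40 ± 0.79 on the log2 scale at 0 h, -1.97 ± 0.79 at 24 h and -0.75 ± 0.79 at 48 h. The libraries of KO and WT overlapped each time, and the adjusted p was 0.970 at 0 h, 0.914 at 24 h and 0.953 at 48 h. No member tested, which again leaves out ID2 at 48 h, passed between KO and WT at any time. Few genes did: 0.0985% at 0 h, 0.0116% at 24 h and 0.0638% at 48 h. Under an unadjusted p of 0.05 there were 1194 genes at 0 h, 892 at 24 h and 1131 at 48 h. Without adjustment, ID1 at 24 h was the 1 member under 0.05 here too. By group median ID1 ran 34.3 FPKM in KO at 0 h, 24.2 in WT at 0 h, 17.1 in WT at 24 h, 8.39 in WT at 48 h, 7.63 in KO at 24 h and 7.26 in KO at 48 h. Each neighbouring pair in that order overlapped.

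ID2 is the member that was listed at 0 at 48 h in KO. It had 0 FPKM in all 4 KO libraries at 48 h, against 10.6, 7.50, 6.02 and 9.17 FPKM in WT at 48 h. The WT values corresponded to 13.2, 10.4, 8.18 and 14.4 estimated fragments. The groups did not overlap, but this is the pattern that selected the family, and no fold is given against a group listed at 0. At earlier times ID2 was above 0 in every library of both genotypes.

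In KO at 24 h ID2 had 5.13, 1.61, 1.56 and 6.30 FPKM, against 10.9, 5.52, 24.2 and 8.32 FPKM in KO at 0 h. The highest library at 24 h lay above the lowest at 0 h, and the 2 lowest values stood for 2.08 and 2.01 estimated fragments. The log2 fold change was -1.62 ± 0.56 (95% interval -2.77 to -0.47, adjusted p = 0.0955), which did not pass. The fit pools the spread over all 6 groups, and the KO libraries at 48 h, all at 0, add none. The SEs and p-values of every ID2 test may therefore be too small. Under the other settings, which include a fit of only the groups compared, the adjusted p was 0.0712 to 0.213. The groups averaged 3.65 ± 2.43 FPKM in KO at 24 h and 12.2 ± 8.26 FPKM in KO at 0 h (SD, n = 4 each).

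In WT ID2 had 1.60, 4.65, 12.6 and 3.13 FPKM at 24 h, against 7.83, 16.7, 5.78 and 7.79 FPKM at 0 h. These overlapped, with a log2 fold change of -0.97 ± 0.56 (adjusted p = 0.421). At 48 h WT cells averaged 8.31 ± 1.98 FPKM, against 9.53 ± 4.90 FPKM in WT at 0 h (SD, n = 4 each). That difference was -0.11 ± 0.56 on the log2 scale (95% interval -1.25 to 1.04, adjusted p = 0.991). KO minus WT was 0.25 ± 0.56 at 0 h (adjusted p = 0.984) and -0.41 ± 0.56 at 24 h (adjusted p = 0.991), and the responses at 24 h differed by -0.66 ± 0.79 (adjusted p = 0.940). By group median ID2 ran 9.60 FPKM in KO at 0 h, 8.33 in WT at 48 h, 7.81 in WT at 0 h, 3.89 in WT at 24 h, 3.37 in KO at 24 h and 0 in KO at 48 h, and neighbours overlapped except the last pair.

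The zeros of ID2 were set beside the annotation around it. ID2-AS1 was at 0 in 22 of 24 libraries, including all 8 at 48 h, with 2.80 FPKM in 1 KO library and 13.2 FPKM in 1 WT library at 24 h. KIDINS220, the nearest gene to the right at 36628 bp, encodes a membrane scaffold of neurotrophin receptors. It was above 0 in all 24 libraries, at 3.09 to 9.29 FPKM in KO and 3.68 to 5.10 FPKM in WT at 48 h. AC011747.1, 55903 bp to the left, was at 0 throughout.

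Other genes were searched for such zeros. Counted were genes at 0 in all 4 libraries of 1 group and above 0 in the 20 others, averaging at least 5 FPKM there. There were 5, with ID2 among them because the family was chosen by this pattern. ID2 was the 1 gene with this pattern in KO at 48 h, which is a description only. How rare the pattern is was not tested. PIGG, a GPI anchor enzyme, had it in WT at 0 h, and MT-ATP6, MT-CO3 and MT-ATP8, mitochondrially encoded subunits of ATP synthase and cytochrome oxidase, had it in WT at 48 h. Elsewhere ID2 lay between 1.56 and 24.2 FPKM and PIGG between 0.742 and 19.7 FPKM, whereas MT-ATP6 lay between 743 and 6952 FPKM. Whether the zeros of ID2 are failed estimates was not tested.

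ID3, another BMP target, was detected less steadily. At 0 h it had 0, 10.9, 5.81 and 5.79 FPKM in KO, against 3.06, 2.41, 15.1 and 8.54 FPKM in WT. At 24 h the values were 0, 6.69, 7.18 and 4.55 FPKM in KO, against 0, 2.90, 9.30 and 8.87 FPKM in WT. At 48 h they were 2.02, 0, 0 and 5.62 FPKM in KO, against 4.93, 4.74, 2.38 and 0 FPKM in WT. Libraries at 0 occurred in 5 of the 6 groups, and all groups overlapped. Its log2 fold changes over the 9 comparisons lay between -1.47 ± 1.16 (48 h against 0 h in KO, adjusted p = 0.516) and 0.63 for the difference of responses at 24 h (adjusted p = 0.981). The 95% interval of the first was -3.88 to 0.94.

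ID4, known for its role in neural development, was the lowest of the 4. At 0 h it had 1.31, 2.08, 5.04 and 1.29 FPKM in KO, against 0, 2.30, 3.39 and 2.38 FPKM in WT. At 24 h it had 1.996, 0.898, 3.56 and 6.00 FPKM in KO, against 4.63, 4.21, 0 and 8.05 FPKM in WT. Ranges overlapped at both times. At 48 h it had 1.69, 0.768, 0.862 and 0.768 FPKM in KO, against 2.03, 1.67, 1.72 and 2.29 FPKM in WT. Of the KO libraries, 3 lay below every WT library and 1 did not, and the log2 difference was -0.71 ± 0.76 (adjusted p = 0.953). KO at 48 h averaged 1.02 ± 0.450 FPKM and WT at 48 h 1.93 ± 0.288 FPKM (SD, n = 4 each). ID4 log2 fold changes over the 9 comparisons lay between -1.10 and 0.68, and none passed.

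**Figure D2:**
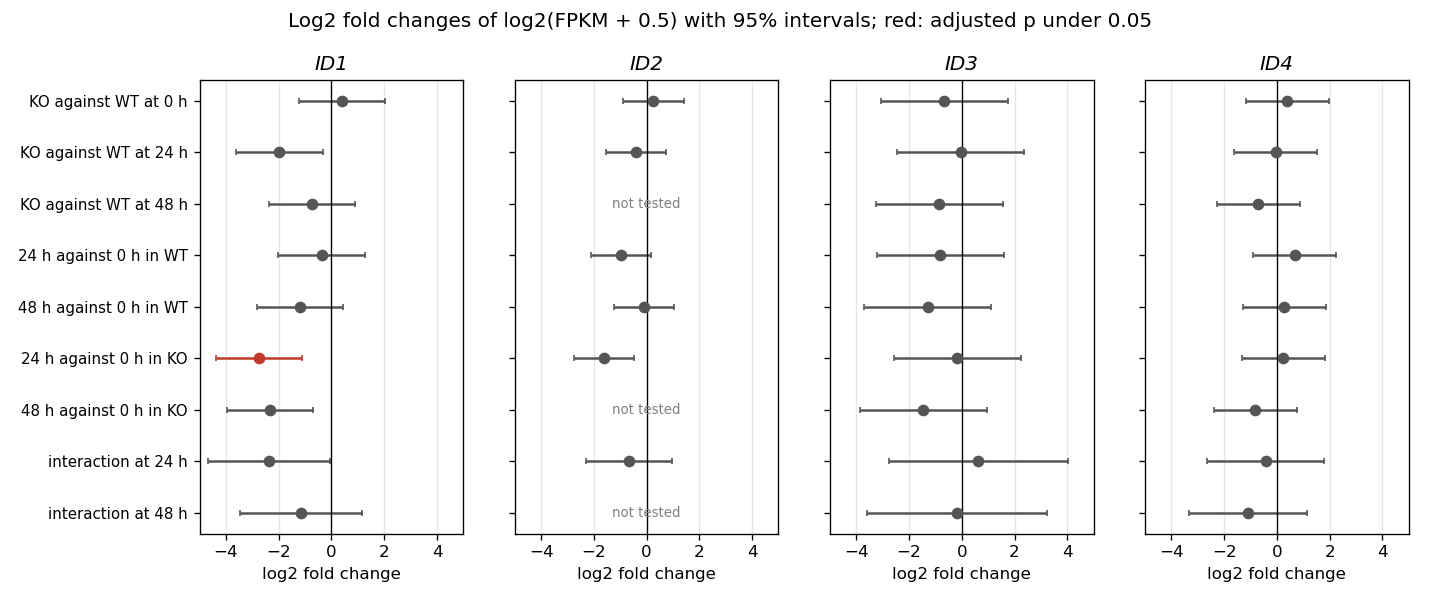
Log2 fold changes of log2(FPKM + 0.5) with 95% intervals for the 4 members in the 9 comparisons (first-named group over second; interaction is KO response minus WT response). ID1 at 24 h against 0 h in KO, at -2.76, is the 1 point in red (adjusted p under 0.05), and the 3 comparisons of ID2 that involve KO at 48 h are not tested.

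The members were also compared with each other library by library. Over the 24 libraries, Pearson's r of log2(FPKM + 0.5) was 0.41 for ID1 and ID2, 0.28 for ID2 and ID3 and between -0.06 and 0.15 for the other 4 pairs. The points share the 6 groups and the depth of each library, so these values are descriptions. Noise from few fragments also lowers r, and a low r does not show that members vary separately. The values of ID2 include the KO libraries at 48 h by which the family was chosen. Among the 6002 protein-coding genes averaging 5 FPKM or more, the closest to ID1 over the 24 libraries were RNF207 (r = 0.77), NTAN1 (0.72) and POLR2L (0.71). Those closest to ID2 were INTS8 (0.78), TATDN1 (0.77) and TEFM (0.77), each with its lowest group median in KO at 48 h. The likeness to ID2 thus partly repeats the choice of the family. Those closest to ID3 were PLOD3 (0.74), RNPEPL1 (0.68) and TBK1 (0.64), and to ID4 ARFGAP1 (0.70), PSMG1 (0.68) and DCDC2B (0.63). Apart from ARFGAP1 and PSMG1, each of the closest genes named has exons overlapping a gene on the other strand, so its values are uncertain.

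Genes of the BMP pathway and ID partners were read from a list of 61, of which 44 passed the floor. The BMP targets HAMP and ATOH8 were at 0 in every library. In KO 6 of the 44 were called at 24 h (4 higher, 2 lower), a share of 13.6% against 5.64% of all genes tested, and 4 at 48 h (3 higher, 1 lower), 9.09% against 9.82%. In WT 0 were called at 24 h, against 4.06% of all genes, and 2, both higher, at 48 h, 4.55% against 6.79%. The shares in KO at 48 h and in WT were thus no higher than those of all genes. None of the 44 passed in limma between KO and WT or in the test of the difference of responses. Without adjustment, 3 of the 44 (6.82%, against 6.92% of all genes) were under 0.05 between KO and WT at 0 h, 2 (4.55%, against 5.17%) at 24 h and 4 (9.09%, against 6.56%) at 48 h. In WT there were 6 (13.6%, against 15.8%) at 24 h against 0 h and 8 (18.2%, against 18.8%) at 48 h. In KO there were 8 (18.2%, against 17.8%) at 24 h against 0 h and 8 (18.2%, against 21.7%) at 48 h. The larger share called in KO at 24 h was thus not seen without adjustment. For the difference of responses there were 3 (6.82%, against 5.51%) at 24 h and 4 (9.09%, against 6.60%) at 48 h.

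The next list mixes BMP ligands with other TGF-beta family ligands and with antagonists. Of its 8 genes tested, 4 were called higher in KO at 24 h and 3 at 48 h. Over all genes tested, 2.13% were called higher at 24 h and 3.4% at 48 h. Of the BMP ligands BMP2, BMP4 and BMP8B, only BMP2 was called. Against 0 h in KO, the log2 fold changes of BMP4 were -1.13 at 24 h and -0.20 at 48 h. Those of BMP8B were 0.76 and 0.43. The list was chosen with earlier results of these data known. It had a median of 1.26 at 24 h and 1.09 at 48 h on the log2 scale, against 0 for all genes at both times. BMP2, a ligand that activates SMAD1, SMAD5 and SMAD9, had 6.03, 8.21, 4.38 and 5.56 FPKM in KO at 24 h, against 0.735, 1.17, 4.54 and 0.735 FPKM in KO at 0 h. At 48 h it had 8.92, 6.54, 11.9 and 8.61 FPKM, all above 0 h, whereas 1 library overlapped at 24 h. The log2 fold changes were 1.76 ± 0.47 at 24 h (adjusted p = 0.0279) and 2.30 ± 0.47 at 48 h (adjusted p = 0.00197). In WT they were 1.54 ± 0.47 at 24 h (adjusted p = 0.0727) and 1.34 ± 0.47 at 48 h (adjusted p = 0.0993), and did not pass. The call in KO at 24 h was lost in 6 of 8 fits with 1 library left out, with an adjusted p of up to 0.0859, and was kept without KO replicate 2 at 0 h or at 24 h. It was also lost with only the groups compared (0.183).

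FST, follistatin, which binds activins and some BMPs, had 0, 7.91, 0 and 0 FPKM in KO at 0 h, 9.60, 8.16, 13.3 and 16.0 FPKM in KO at 24 h and 24.2, 18.9, 34.2 and 28.8 FPKM in KO at 48 h. Both later groups lay above all libraries at 0 h. Its log2 fold change was 3.55 ± 0.74 at 24 h (adjusted p = 0.00437) and 4.71 ± 0.74 at 48 h (adjusted p = 0.000117), sizes that depend on the pseudocount because 3 of the 4 libraries at 0 h, the shallower time, were at 0. The call at 24 h was lost with only the groups compared in the fit (adjusted p = 0.0657). In WT FST rose at 48 h, by 2.94 ± 0.74 (adjusted p = 0.0164), a call lost without WT replicate 0 at 0 h (0.0737) or WT replicate 2 at 48 h (0.0569), with a pseudocount of 0.1 (0.0530) and with only the groups compared (0.0620).

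GDF15, a stress-induced distant member of the TGF-beta family, had 43.2, 22.5, 30.5 and 37.8 FPKM in KO at 24 h, against 0, 5.72, 3.43 and 0 FPKM in KO at 0 h. The groups did not overlap, and the zeros are again at the shallower time. GDF15 rose in KO by 4.39 ± 1.07 at 24 h (adjusted p = 0.0144) and 4.09 ± 1.07 at 48 h (adjusted p = 0.0145). Without KO replicate 0 or 3 at 0 h, both at 0, the adjusted p was 0.0589 or 0.0591 at 24 h and 0.0578 or 0.0591 at 48 h. In WT, GDF15 changed by 2.79 ± 1.07 at 24 h (adjusted p = 0.178 in limma) and 1.47 ± 1.07 at 48 h (0.511). The responses of GDF15 differed by 1.61 ± 1.52 at 24 h (adjusted p = 0.923) and 2.62 ± 1.52 at 48 h (0.801), which did not pass. INHBE, the activin beta E subunit made by hepatocytes, had 4.73, 10.7, 17.7 and 8.46 FPKM in KO at 24 h, against 0.898, 0, 5.22 and 0.924 FPKM in KO at 0 h. A single library overlapped. Its change of 2.68 ± 0.79 (adjusted p = 0.0464) passed in 2 of the 8 fits with 1 library left out, those without KO replicate 2 at 0 h or KO replicate 0 at 24 h, and reached 0.152 in the others. It was also lost under 6 of 10 other settings, with an adjusted p of up to 0.0973. In WT at 24 h INHBE changed by 0.69 ± 0.79 (adjusted p = 0.735 in limma). The difference of responses, 1.99 ± 1.12, did not pass (adjusted p = 0.902).

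Among the 10 receptors and coreceptors tested, NEO1, a coreceptor of hepcidin signalling, rose in WT at 48 h, where 6.79% of all genes tested were called. It had 13.5, 7.96, 26.7 and 1.48 FPKM there, against 0.566, 0.513, 0 and 0.656 FPKM in WT at 0 h, without overlap. The log2 fold change was 3.33 ± 0.88 (adjusted p = 0.0217), a call lost without WT replicate 2 at 0 h (0.0649) or WT replicate 0 (0.0656) or 2 (0.0837) at 48 h. It was also lost with quantile normalization (0.0683) and with only the groups compared (0.0554). In KO at 48 h NEO1 had a log2 fold change of 0.98 ± 0.88 (adjusted p = 0.583), and the difference of responses, -2.35 ± 1.25, did not pass (adjusted p = 0.794). None of the 8 SMAD transducers and inhibitors was called in any comparison. At most 9.82% of all genes tested were called in a comparison, so a list this short may well hold none.

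Of the 3 E proteins bound by ID proteins, TCF3 was called lower in KO at 24 h, as were 3.51% of all genes tested. It had 22.4, 10.3, 10.7 and 21.5 FPKM in KO at 24 h, against 44.6, 32.8, 60.3 and 62.2 FPKM in KO at 0 h, without overlap. The log2 fold change was -1.64 ± 0.41 (adjusted p = 0.0184), and the call was lost without KO replicate 2 (0.0585) or 3 (0.0602) at 0 h or KO replicate 1 (0.0654) or 2 (0.0639) at 24 h. In WT TCF3 had a log2 fold change of 0.09 ± 0.41 at 24 h (adjusted p = 0.985), and the responses differed by -1.72 ± 0.58 (adjusted p = 0.854). TCF12 and TCF4 were not called in any of the 9 comparisons.

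Of the 6 cell cycle inhibitors and pocket proteins tested, CDKN2A was called lower in KO at 24 h, as were 3.51% of all genes tested. It had 4.59, 3.27, 5.38 and 5.33 FPKM there, against 12.2, 30.0, 36.7 and 12.95 FPKM in KO at 0 h. The change was -2.05 ± 0.47 (adjusted p = 0.00876), but its exons overlap CDKN2B-AS1 on the other strand, and its value is uncertain. In WT at 24 h CDKN2A changed by -0.29 ± 0.47 (adjusted p = 0.831 in limma). The difference of responses, -1.76 ± 0.66, did not pass (adjusted p = 0.883). Among the 4 genes of ID protein stability is CDC20, an activator of the anaphase-promoting complex that is highest in dividing cells. It fell in KO at 48 h, where 9.82% of all genes tested were called. It had 2.30, 3.33, 0 and 4.28 FPKM there, against 23.6, 10.2, 19.4 and 8.55 FPKM in KO at 0 h, without overlap. The change was -2.71 ± 0.66 (adjusted p = 0.00856). In WT at 48 h CDC20 changed by -0.33 ± 0.66 (adjusted p = 0.867 in limma), and the difference of responses did not pass. USP1, which removes ubiquitin from ID proteins, was not called in any comparison. None of the 5 HES, HEY and BHLHE repressors tested was called, which a list this short may well show at such shares.

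**Figure D3:**
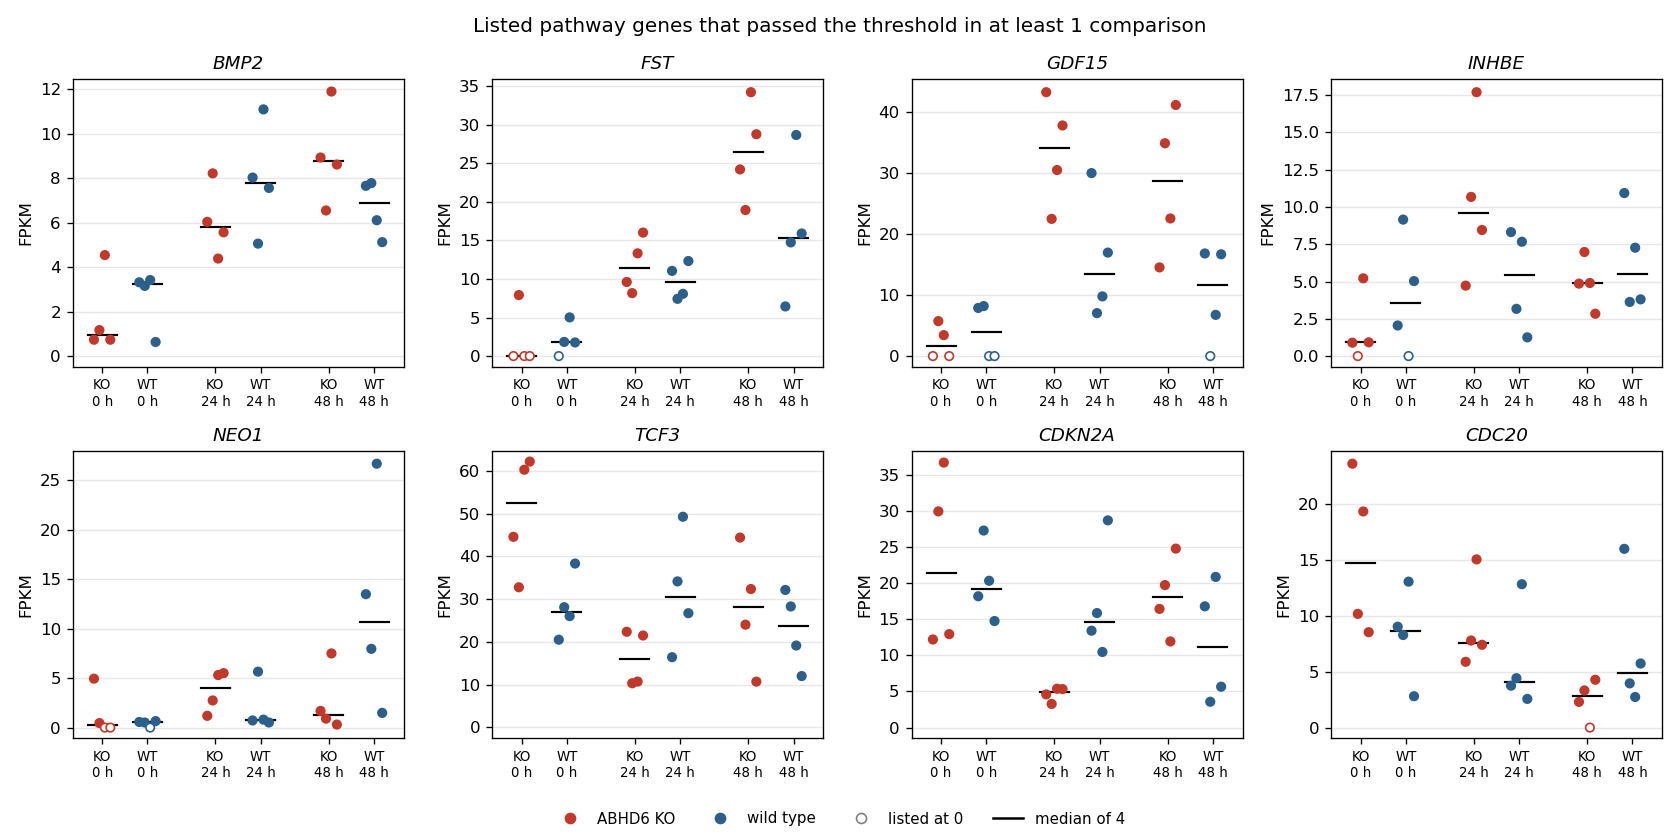
FPKM in every library (1 point each, open where listed at 0; bar, median of 4) of the 8 listed pathway genes called in at least 1 comparison with 0 h, by genotype and hours with palmitic acid. FST lies between 18.9 and 34.2 FPKM in KO at 48 h, above all 4 KO libraries at 0 h, and TCF3 lies between 10.3 and 22.4 FPKM in KO at 24 h, below all 4 KO libraries at 0 h.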

How the data were processed

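RNA of 24 Huh7 libraries was made into directional mRNA libraries and sequenced on an Illumina instrument, per the labels' protocols. The authors deposited 1 table of FPKM values, 1 column per library; the submitters' processing notes list the tools STAR, Cufflinks and Cuffdiff and the build GRCh38, with no version or role for any. Scaling between libraries and the strand setting are not given in the sources used here. The table has 58024 rows; 45 copies of chromosome Y genes, all at 0, were left out, and 99.0% of IDs matched GENCODE release 29.

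The 17252 genes averaging 0.5 FPKM or more were compared on the scale log2(FPKM + 0.5). A single limma fit (version 3.58.1, R 4.3.3) held 6 group means and let the variance follow the intensity (18 residual and 4.63 prior degrees of freedom). The p-values were adjusted by Benjamini-Hochberg over all genes tested in each of 9 comparisons. A gene was called at an adjusted p under 0.05. Tests are two-sided. Fragments per library were estimated from long genes with a single transcript. Their commonest product of FPKM and exon length was assumed to be 1 fragment, and estimated fragments take the whole exon length. Named genes were the 4 members, the 3 protein-coding genes most correlated with each, neighbouring genes, genes with the zero pattern of ID2, and the called genes of the pathway lists. The members and lists were chosen with earlier results of these data known, and the pathway genes' alternatives were added after seeing the data. Alternatives were pseudocounts of 0.1 and 1, no floor and a floor of 2 FPKM, median-of-ratios rescaling, quantile normalization, only the groups compared, no variance trend, a robust prior, a replicate block, and leaving out each library in turn. The other tables and plots used Python 3.11.15, with pandas 2.3.3, numpy 2.4.6, matplotlib 3.10.9 and scipy 1.17.1.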

Additional observations from a re-analysis of the deposited data

Results flagged for a closer look

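Of 23 member groups with any spread, 2 held a library far from the other 3 by Dixon's test at its 95% level, and chance gives about 1 in 20. For ID1 in WT at 48 h, the highest library had 31.1 FPKM and the gap to the next took 0.910 of the group's range. For ID4 in KO at 48 h, the highest library had 1.69 FPKM and the gap took 0.899 of the range.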

How the results depend on the processing

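Over the fold changes of the 4 members, 319 of 330 values under other settings and 280 of 320 with 1 library left out kept their direction and their side of the threshold. The count of members called at 24 h against 0 h in KO was 0 in place of 1 with a pseudocount of 0.1, no floor, median-of-ratios rescaling, quantile normalization, no variance trend or only the groups compared (adjusted p of ID1 0.0514 to 0.170), and lay between 0 and 1 with a library left out. At 48 h against 0 h in KO it was 1 in place of 0 with a pseudocount of 1, a floor of 2 FPKM or only the groups compared. Of the listed pathway genes, 1 in place of 2 was called in WT at 48 h with a pseudocount of 0.1 (FST lost) or quantile normalization (NEO1 lost) and 0 with only the groups compared (0 to 3 with a library left out). In KO at 24 h 3 in place of 6 were called with only the groups compared, where BMP2, FST and INHBE were lost (2 to 5 with a library left out). INHBE at 24 h in KO was also lost with a pseudocount of 0.1, no floor, quantile normalization, no variance trend or the replicate block (adjusted p 0.0624 to 0.0792). The cause was not tested.

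Directions turned for ID4 in KO against WT at 24 h with a pseudocount of 0.1 (0.37) and for ID2 at 48 h against 0 h in WT with median-of-ratios rescaling (0.01), which moved the median of all genes there by 0.0965, and by 0.11 in KO at 48 h. With 1 library left out, log2 fold changes that turned, none of them called, spanned the following ranges. For KO against WT at 0 h they were -0.14 to 0.55 for ID2, -1.19 to 0.31 for ID3 and -0.27 to 0.71 for ID4, and at 24 h -0.80 to 0.079 for ID2, -0.98 to 0.89 for ID3 and -0.93 to 0.43 for ID4. For WT they were -1.30 to 0.13 for ID3 at 24 h, and -0.29 to 0.19 for ID2 and -0.38 to 0.60 for ID4 at 48 h. For KO at 24 h they were -1.16 to 0.75 for ID3 and -0.11 to 0.63 for ID4. For the difference of responses they were -0.35 to 1.56 for ID3 and -1.32 to 0.23 for ID4 at 24 h, and -1.16 to 0.34 for ID3 at 48 h.

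Deviations of same-numbered libraries were weakly correlated (r from -0.13 to 0.14, over 0.1 in 1 of 28 pairs). The best match had the same number in 41 of 120, part of which arises by chance with 4 libraries a group. This check cannot exclude pairing, because noise in shallow libraries also lowers r. With the replicate block ID1 at 24 h against 0 h in KO stayed called (log2 fold change -2.76, adjusted p = 0.0463). Depth is lowest behind ID4, whose values above 0 rested on a median of 2.61 estimated fragments.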
